A study of Mus musculus with 6 samples.

Results

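The Hox cluster genes encode homeodomain transcription factors, and the 39 gene rows named Hoxa, Hoxb, Hoxc or Hoxd with a paralog number were taken from the 34591 gene rows of each library. They comprise 11 genes of the Hoxa cluster, 10 of Hoxb, 9 of Hoxc and 9 of Hoxd. The series holds RNA-seq gene counts of mouse brain tumours from a WNT medulloblastoma model, a tumour of the hindbrain in which WNT signalling is active. Its 6 libraries are 3 of tumours labelled sh2-Ift88 (shIft88 below), for a short hairpin RNA against the ciliary transport gene Ift88, and 3 of control tumours of the same model. Alleles, Cre driver, strain, host and age were not given in the labels used here. Whether each library is a different animal is likewise unstated, so p-values measure only the spread between these libraries, which may be technical. Ift88 itself was at 14.7, 16.0 and 14.4 CPM (read counts scaled by library size) in shIft88 1, 2 and 3, against 13.8, 19.7 and 13.7 CPM in control 1, 2 and 3. The groups overlapped in the targeted transcript, so a knockdown was not seen at the RNA level in these counts. Every direction given is that of the libraries labelled shIft88.

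Hox genes lie in 4 clusters, and genes of the same paralog number in different clusters are close relatives. In the embryo, low paralog numbers are switched on first and reach farthest forward, into the hindbrain, while high numbers are used in the trunk, limbs and tail. In the hindbrain, paralogs 1 to 4 mark the rhombomeres, the segments from which brainstem and cerebellar neurons arise. The midbrain and the most anterior hindbrain, marked by Otx2 and the Engrailed genes, normally lack Hox expression. Retinoic acid and WNT signals open the clusters, Polycomb proteins keep them closed elsewhere, and Pbx and Meis proteins bind DNA together with Hox proteins.

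Gene counts summed to between 26802618 and 33772559 per library, and between 1091 and 4533 of those reads fell on Hox genes. A library standing on few Hox reads measures single members less precisely, and 3 reads correspond to 0.0742 to 0.187 CPM. Of the 6 libraries, 3 carried reads in many genes that brain tissue keeps silent: of 1097 olfactory receptor rows, 497 and 340 had a read in shIft88 2 and 3 and 437 in control 2, against 30 in shIft88 1 and 21 and 31 in control 1 and 3. In those libraries 99% of olfactory receptor rows had at most 5, 4 and 4 reads, and in the others at most 2. shIft88 3 also had the highest share of unaligned reads, 10.2%, where the lowest of the 6 was 2.93%. WNT targets (Axin2, Lef1, Wif1 and 7 others) summed to 4166 to 5405 CPM in shIft88 libraries and 3619 to 6164 CPM in controls.

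Hoxb9 led the ranking. Ranked by CPM per kilobase of annotated exon and averaged over the 6 libraries, Hoxb9 came first at 7.72, followed by Hoxb4 at 3.26, Hoxa10 at 2.95, Hoxb7 at 2.68 and Hoxa13 at 2.30 CPM per kb. Among genes of the rhombomeres, Hoxb2 averaged 2.15 and Hoxb3 1.67 CPM per kb, at ranks 6 and 8, while Hoxa2 averaged 0.0744 and Hoxb1 0.0232 CPM per kb. Hoxb9 ranked first per kilobase in 5 libraries and second, behind Hoxb2, in control 3. The order varied between libraries: Hoxa10 ranked between 2 and 5 except in control 1, where it ranked 9, and Hoxa13 ranked between 2 and 4 except in control 1 and 3, where it ranked 12 and 18. The members that reached 1 CPM in all 6 libraries were 7: Hoxa10, Hoxa13, Hoxb3, Hoxb4, Hoxb7, Hoxb9 and Hoxd3. Another 18 reached 1 CPM in no library, and 6 did so in exactly 1 library.

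**Figure D1:**
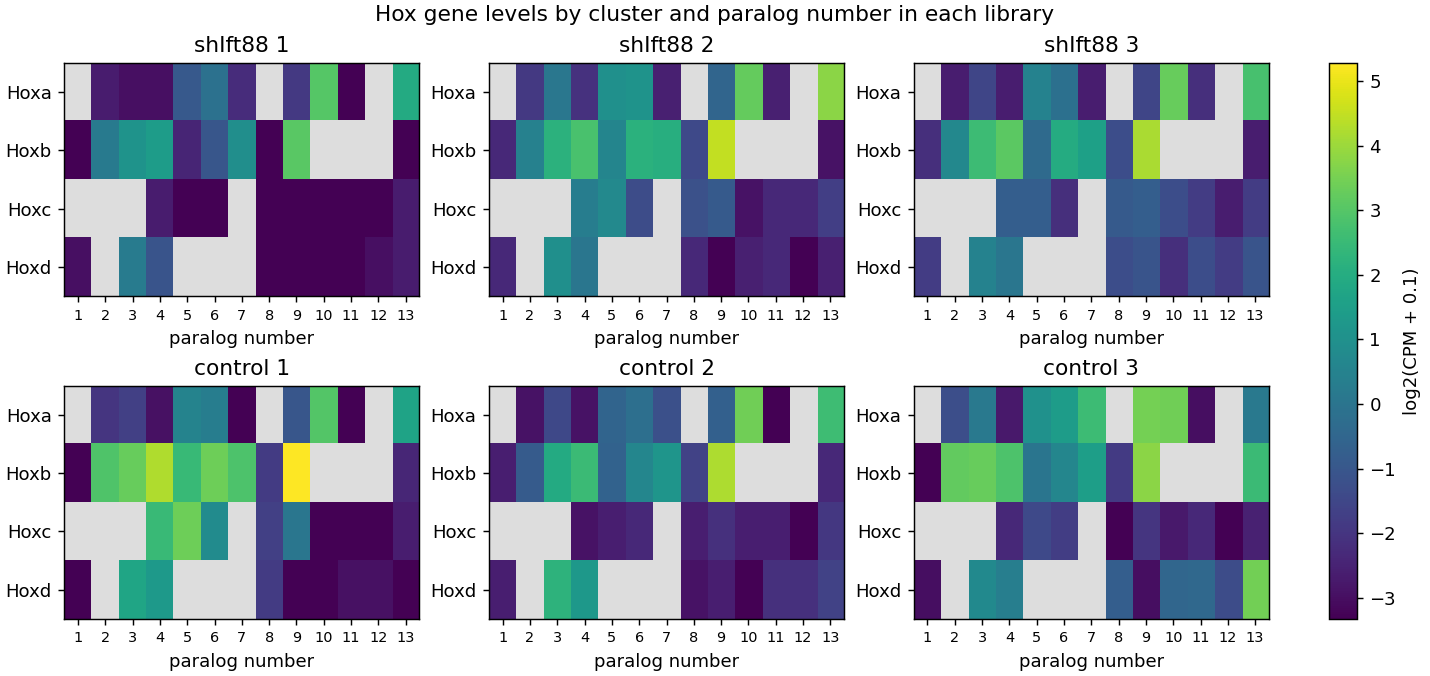
Level of each Hox gene as log2(CPM + 0.1), by cluster (rows) and paralog number (columns), in the 3 shIft88 libraries (top) and the 3 control libraries (bottom); grey cells are paralogs absent from a cluster or not shown. Hoxb9, Hoxa10 and Hoxb4 stand out in most panels, Hoxc4 and Hoxc5 in control 1, and Hoxa9, Hoxb13 and Hoxd13 in control 3.

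No Hox gene passed the test between the groups. Of the 39 members, 15 passed the filter on low counts and were tested, and 0 were called at an adjusted p of 0.05 by edgeR's quasi-likelihood test. Of all 16768 genes tested, 0% were called in either direction, so the members could not be told from that background. The members' smallest adjusted p was 0.9995, and 1 of them (Hoxa9) had an unadjusted p under 0.05, where 1.97% of all genes had one and were higher and 1.26% had one and were lower. DESeq2 and limma-voom also called 0 members, while DESeq2 called 0.286% of all genes higher and 0.0826% lower. Without a filter all 39 members entered the edgeR test and again 0 were called. The log2 fold change of shIft88 over control was below 0 for 13 of the 15 tested members and above 0 for 2, among them Hoxa13, with a median of -0.62, against a median of -0.012 and 51.3% of genes below 0 over all genes tested. With the tested members alone, a gene high in 1 library could fail the filter, as 5 of the 6 genes that reached 1 CPM in exactly 1 library did.

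The spread between libraries of one group was wide. The standard deviation of log2(CPM + 0.1) over the 3 controls had a median of 0.82 for the 15 tested members and 0.43 for all genes tested. Over the 3 shIft88 libraries the medians were 0.72 and 0.42. The genes were not matched for level, and counting error widens this spread at low counts. Among controls, 4 of the 15 members (Hoxa9, Hoxb2, Hoxb5 and Hoxb6) had a standard deviation above 1.44, the value that 10% of all genes exceed. Hoxa10 was the steadiest, with 0.16 in shIft88 libraries and 0.26 in controls. In a bulk sample fewer cells that express a gene and less RNA per cell cannot be told apart.

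**Figure D2:**
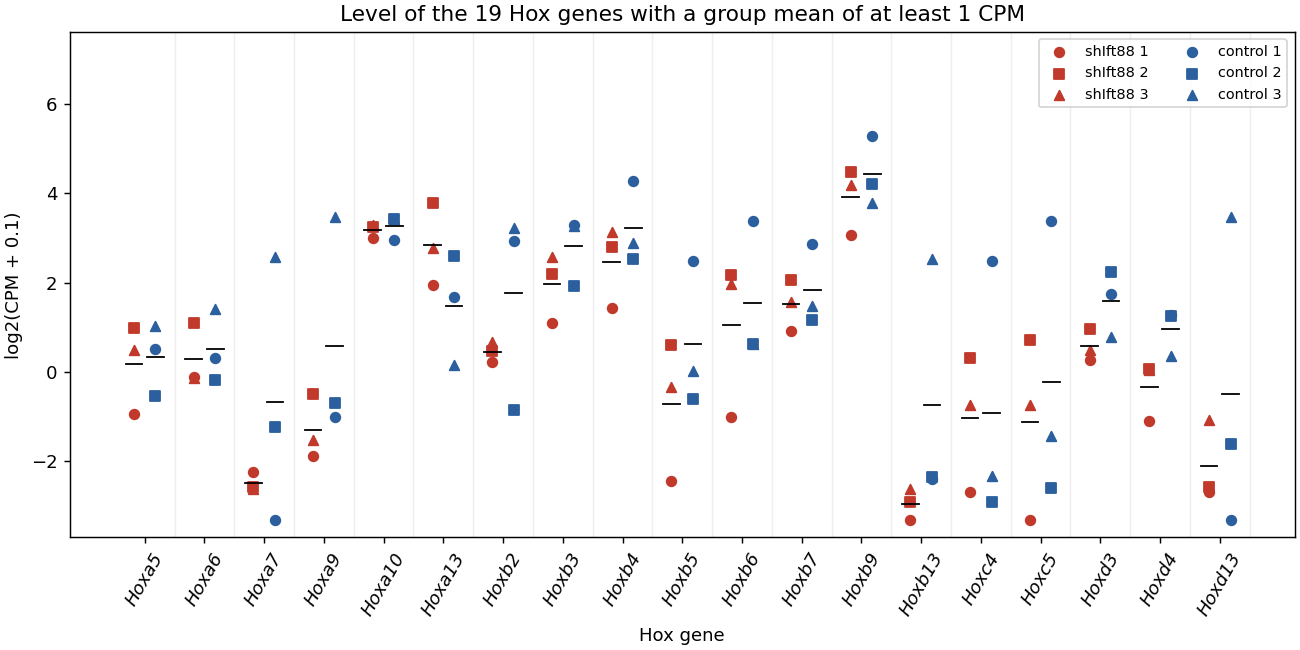
Level of the 19 Hox genes with a mean of at least 1 CPM in either group, as log2(CPM + 0.1), for each shIft88 library (red, left) and each control library (blue, right), with black bars at the group means. Both groups overlap for 17 of the 19 genes. Hoxd4 and Hoxb13 are lower in every shIft88 library, as were 3.69% of all genes tested. Hoxb13 was not tested, and it had 0, 1 and 1 reads in shIft88 libraries and 3, 3 and 229 in controls.

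Paralogs 1 to 3 reach the hindbrain in the embryo, and here Hoxb2, Hoxb3 and Hoxd3 were their members above 1 CPM in more than 1 library. Hoxb2, which patterns rhombomeres 3 to 5 and facial motor neurons, was at 1.08, 1.28 and 1.499 CPM in shIft88 1, 2 and 3, against 7.48, 0.455 and 9.22 CPM in control 1, 2 and 3. Control 1 and 3 were thus above every shIft88 library and control 2 was below them all. The means were 1.28 ± 0.212 CPM in shIft88 libraries and 5.72 ± 4.64 CPM in controls (SD, n = 3 each), and the log2 fold change was -2.16 (SE 0.96, adjusted p = 0.9995). Hoxb3 was at 2.04, 4.503 and 5.87 CPM in shIft88 libraries, against 9.66, 3.71 and 9.52 CPM in controls, with the same pair of controls on top. Its log2 fold change was -0.89 (SE 0.57). Hoxd3, which helps to shape the upper neck vertebrae, was at 1.10, 1.85 and 1.31 CPM in shIft88 libraries and 3.24, 4.62 and 1.61 CPM in controls. Only control 3 overlapped with the shIft88 range, and the log2 fold change was -1.15 (SE 0.56). Hoxa2, needed for the second pharyngeal arch, had at most 13 reads in any library, and Hoxa3 at most 41. Hoxb1, the gene of rhombomere 4, had 3 reads or fewer in every library, and so did Hoxd1.

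Paralogs 4 and 5 mark the boundary of hindbrain and spinal cord. Hoxb4 was at 2.60, 6.82 and 8.62 CPM in shIft88 libraries and 19.1, 5.66 and 7.32 CPM in controls. Control 1 alone lay above all the others, and the log2 fold change was -0.83 (SE 0.63) and -0.12 without control 1. Hoxd4 was at 0.368, 0.941 and 0.937 CPM in shIft88 libraries and 2.33, 2.28 and 1.19 CPM in controls. It was the only tested member whose groups did not overlap. Of all genes tested, 3.69% did not overlap in that direction and 4.7% in the other, so 1 of 15 members is close to the background. Its means were 0.749 ± 0.330 CPM in shIft88 libraries and 1.93 ± 0.646 CPM in controls (SD, n = 3 each), and the log2 fold change was -1.37 (SE 0.60, adjusted p = 0.9995). Hoxd3 and Hoxd4 share exonic sequence on the same strand in the annotation used here, as Hoxc5 and Hoxc10 do. Reads tallied as ambiguous made up 0.876% to 4.37% of a library, the most in shIft88 3. Whether reads of shared sequence were set aside there or counted for a gene is not given. Hoxb5 was at 0.0849, 1.41 and 0.687 CPM in shIft88 libraries and 5.48, 0.553 and 0.915 CPM in controls, and Hoxa5, which acts in lung and breathing circuits, was at 0.424, 1.88 and 1.31 CPM against 1.33, 0.585 and 1.95 CPM. In both genes each shIft88 library except shIft88 1 lay within the control range. Hoxa4 had 4 reads or fewer in every library.

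Paralogs 6 to 9 belong to the trunk, and the most abundant Hox transcript of these brain tumours was among them. Hoxb9, a gene of the thoracic region that has been studied in tumours of several organs, was at 8.32, 22.2 and 17.9 CPM in shIft88 libraries and 38.6, 18.3 and 13.7 CPM in controls. The groups overlapped widely, with a log2 fold change of -0.54 (SE 0.51). Hoxb7 was at 1.78, 4.07 and 2.87 CPM in shIft88 libraries, against 7.21, 2.15 and 2.69 CPM in controls. Hoxb6 was at 0.396, 4.40 and 3.81 CPM in shIft88 libraries, against 10.4, 1.43 and 1.43 CPM in controls. For Hoxb4 to Hoxb7 and Hoxb9 alike, control 1 was the highest library and shIft88 1 the lowest. Hoxa6 was at 0.821, 2.05 and 0.812 CPM in shIft88 libraries and 1.15, 0.780 and 2.57 CPM in controls.

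Hoxa9 and Hoxa7 differed from the Hoxb genes in which library carried them. Hoxa9, a driver of acute leukaemia when overexpressed, was at 0.170, 0.605 and 0.250 CPM in shIft88 libraries and 0.394, 0.520 and 10.9 CPM in controls. It passed 1 CPM in control 3 alone, with 442 reads, and the other 5 libraries overlapped between the groups. Its log2 fold change of -3.51 (SE 1.42, adjusted p = 0.9995) was -0.41 without control 3. Hoxa7 had 235 reads and 5.81 CPM in control 3, against 0 and 0.325 CPM in control 1 and 2 and 0.113, 0.0672 and 0.0625 CPM in the shIft88 libraries. Hoxa7 did not pass the filter on low counts and was not tested.

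Hoxb8 was nearly silent between active neighbours. Per kilobase of exon, Hoxb8 was at 0, 0.102 and 0.119 CPM per kb in shIft88 libraries and 0.0690, 0.0864 and 0.0657 CPM per kb in controls. Hoxb7 beside it was at 1.38, 3.15 and 2.23 CPM per kb in shIft88 libraries and 5.58, 1.66 and 2.09 CPM per kb in controls. Hoxb9 on its other side was at 3.23, 8.64 and 6.96 CPM per kb in shIft88 libraries and 15.01, 7.11 and 5.33 CPM per kb in controls. The gap at Hoxb8 was thus present in all 6 libraries of both groups. The microRNA gene Mir196a-1 lies between Hoxb9 and Hoxb13, and its row had 20, 95 and 29 reads in shIft88 libraries and 110, 91 and 134 in controls. Total RNA libraries of this kind read the primary transcript there and not the mature microRNA, whose level was not measured. In mouse, miR-196a is known to direct cleavage of the Hoxb8 transcript. Mature microRNAs of the miR-196 and miR-10 families, encoded in the Hox clusters, are printed 5′ to 3′ from RefSeq (GRCm38.p6), with the seed, bases 2 to 8, in capitals, to show the seed of each family. The miR-196 members share the seed AGGUAGU, and the miR-10 members share ACCCUGU.
mmu-miR-196a-5p: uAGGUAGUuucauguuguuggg
mmu-miR-196b-5p: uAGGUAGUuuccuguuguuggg
mmu-miR-10a-5p: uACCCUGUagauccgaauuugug
mmu-miR-10b-5p: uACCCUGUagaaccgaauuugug
The window of the Hoxb8 3′ UTR that pairs best with miR-196a is printed from the GENCODE M21 transcript in DNA letters, with bases in Watson-Crick pairing in capitals.
Hoxb8 site: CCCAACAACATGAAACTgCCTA
Of the 22 bases, 21 paired in this way and the remaining one formed a G:U pair. The next best window among the 39 members, in Hoxd8, had 15 such pairs. An exact match to the miR-196 seed (ACTACCT, same strand only) was found in the 3′ UTR of 8 of the 39 members. Hoxa7 had 4 matches and Hoxc8 had 2, while Hoxa4, Hoxa5, Hoxa9, Hoxb1, Hoxb6 and Hoxb7 had 1 each. Hoxb8 had 0, because its G:U pair lies inside the seed match. Over 21662 mouse genes with an annotated 3′ UTR of any length, 5.90% held an exact match. A match is a description of the letters, and any part of the microRNA in these levels was not tested. The rows of Mir196b, Mir196a-2 and Mir10a had 0 reads in all 6 libraries, Mir10b had 4 or fewer, and Mir615 had 1 read in 1 library.

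**Figure D3:**
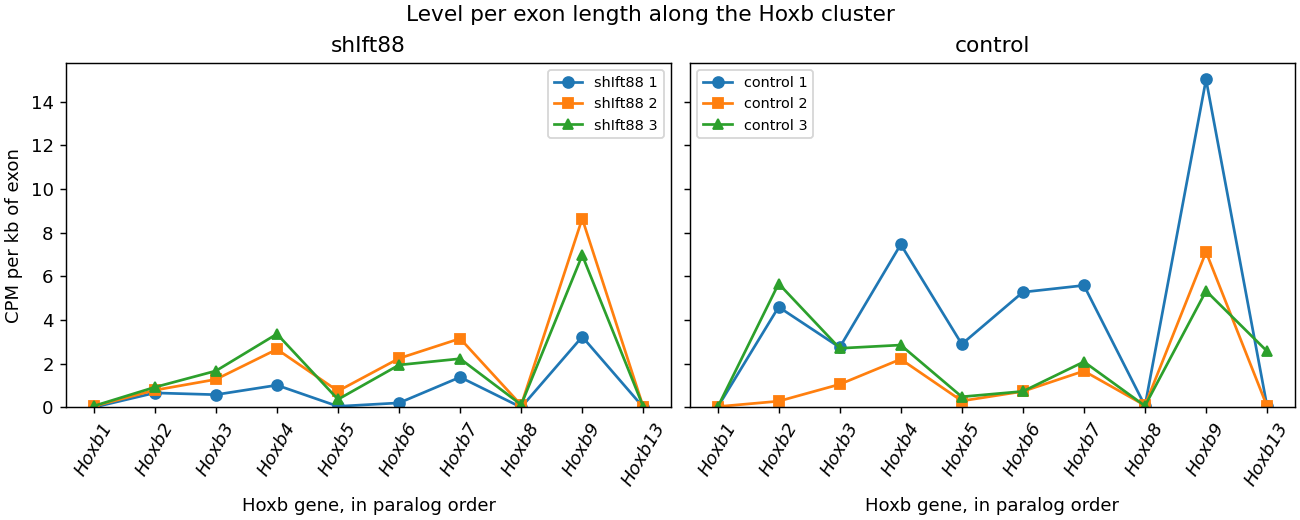
CPM per kb of exon for the 10 Hoxb genes in paralog order, one line per library, shIft88 libraries on the left and controls on the right. Every line drops to near 0 at Hoxb1 and Hoxb8, peaks at Hoxb9 in all libraries except control 3, and rises above 0.05 at Hoxb13 in control 3 only.

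Paralogs 10 to 13 pattern the lumbar region, limbs, hindgut and urogenital tract, and a few of them were well expressed here. Hoxa10, a gene of the uterus and lumbar skeleton, was at 7.87, 9.34 and 9.62 CPM in shIft88 libraries and 7.69, 10.5 and 10.6 CPM in controls. Its means of 8.94 ± 0.942 CPM in shIft88 libraries and 9.60 ± 1.65 CPM in controls (SD, n = 3 each) differed by a log2 fold change of -0.10 (SE 0.32). The neighbouring genes did not share that level: Hoxa11 had 2 reads or fewer in every library and Hoxa9 was below 1 CPM in 5 of them. Hoxa13, which shapes the digits and the genital tract, was at 3.73, 13.7 and 6.68 CPM in shIft88 libraries and 3.09, 5.92 and 1.01 CPM in controls. shIft88 2 was the highest library and control 3 the lowest, and the log2 fold change was 1.27 (SE 0.75, adjusted p = 0.9995), 0.64 without shIft88 2 and 1.96 without control 2. Hottip (counted as Gm15053), the noncoding RNA at the 5′ end of the Hoxa cluster next to Hoxa13, was at 0.764, 3.83 and 1.06 CPM in shIft88 libraries and 0.485, 0.976 and 0.494 CPM in controls, with shIft88 2 highest again.

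Control 3 was also the highest library for several genes of the 5′ ends of the Hoxb and Hoxd clusters. Hoxd13, whose mutations in humans cause limb malformation, was at 10.9 CPM (440 reads) in control 3, against 0 and 0.228 CPM in control 1 and 2 and 0.0566, 0.0672 and 0.375 CPM in the shIft88 libraries. Hoxb13, a gene of the prostate and tail, was at 5.66 CPM (229 reads) in control 3, against 0.0909 and 0.0976 CPM in control 1 and 2 and 0, 0.0336 and 0.0625 CPM in the shIft88 libraries. Hoxd10, Hoxd11 and Hoxd12 had 25, 26 and 12 reads in control 3 and 5 or fewer in each of the other libraries. In CPM the gap was smaller: they were at 0.618, 0.643 and 0.297 CPM in control 3. The next highest library, shIft88 3, had 0.125, 0.312 and 0.187 CPM. Of the 29 members with at least 10 reads in some library, 14 had their highest CPM in control 3 and 11 in control 1. Another 2 were highest in shIft88 2, 1 in shIft88 3 and 1 in control 2. The members under 10 reads were all highest in shIft88 2 or shIft88 3, so the read filter shapes this tally. The same tally over all genes was not computed. Some noncoding rows of the clusters were also highest in control 3. Gm11538, between Hoxb13 and Mir196a-1, had 146 reads in control 3 and 7 or fewer elsewhere. Hoxa11os (counted under its older name Hoxa11as) had 36 reads in control 3 and 6 or fewer elsewhere.

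Hoxc4, Hoxc5 and Hoxc6 were highest in control 1. Hoxc5 was at 0, 1.55 and 0.4997 CPM in shIft88 libraries, against 10.3, 0.0650 and 0.272 CPM in controls. Hoxc4, used by neurons of the neck spinal cord, was at 0.0566, 1.14 and 0.4997 CPM in shIft88 libraries, against 5.51, 0.0325 and 0.0989 CPM in controls. Hoxc6 reached 1.67 CPM in control 1 and at most 0.302 CPM in any other library. shIft88 2 came second for each of these genes. Hoxc9 had 31 reads in control 1 and at most 13 in the others, and Hoxc8 had at most 10. Hoxc10, Hoxc11, Hoxc12 and Hoxc13 had 6 reads or fewer in every library. No Hoxc gene passed the filter on low counts. The members with fewer than 10 reads in every library were 10 (Hoxa4, Hoxa11, Hoxb1, Hoxb8, Hoxc10 to Hoxc13, Hoxd1 and Hoxd9), and together they had 4, 33 and 31 reads in shIft88 1, 2 and 3 and 9, 23 and 21 in control 1, 2 and 3. Their 3 highest sums were in the libraries with reads in silent genes, and the part of such reads in these low counts was not tested. Hoxd8 had at most 20 reads, in control 3.

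Promoter sequences are shown for a gene carried by control 1 and for genes carried by control 3, because Hoxa9 and Hoxd13 were high in the same library while their windows differ in CpG content. These genes were chosen after their values were seen. RefSeq (GRCm38.p6) holds 24 promoter windows for 22 of the 39 members, each from 250 bases before to 50 after an annotated start. They are printed 5′ to 3′ on the gene's strand, with CpG dinucleotides in capitals.
Hoxc4, chr15:103034145-103034444, plus strand: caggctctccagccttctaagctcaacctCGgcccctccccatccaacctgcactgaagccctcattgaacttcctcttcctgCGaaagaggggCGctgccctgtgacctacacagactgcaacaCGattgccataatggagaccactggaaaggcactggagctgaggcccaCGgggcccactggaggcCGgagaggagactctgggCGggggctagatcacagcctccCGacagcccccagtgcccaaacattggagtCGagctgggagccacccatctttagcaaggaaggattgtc
Hoxa9, chr6:52227321-52227620, minus strand: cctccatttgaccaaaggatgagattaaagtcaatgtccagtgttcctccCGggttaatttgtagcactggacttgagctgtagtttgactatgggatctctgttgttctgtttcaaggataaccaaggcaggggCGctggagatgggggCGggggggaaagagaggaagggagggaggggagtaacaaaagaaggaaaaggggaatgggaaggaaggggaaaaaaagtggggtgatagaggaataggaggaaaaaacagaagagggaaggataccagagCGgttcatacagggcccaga
Hoxd13, chr2:74667975-74668274, plus strand: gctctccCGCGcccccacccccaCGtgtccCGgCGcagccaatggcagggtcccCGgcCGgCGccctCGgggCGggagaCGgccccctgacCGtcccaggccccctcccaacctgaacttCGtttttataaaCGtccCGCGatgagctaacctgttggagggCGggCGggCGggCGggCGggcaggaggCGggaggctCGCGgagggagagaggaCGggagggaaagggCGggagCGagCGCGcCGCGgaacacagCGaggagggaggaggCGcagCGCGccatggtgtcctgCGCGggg
The Hoxd13 window held 37 CpG dinucleotides, the Hoxc4 window 9 and the Hoxa9 window 4. Over the 24 Hox windows the median was 14.5 and over all 32851 windows it was 7, with median GC contents of 57.7% and 52.7%. The bipartite Pbx-Hox motif TGATNNAT, searched on both strands, was in 4 of 24 Hox windows (16.7%) and 8.85% of all windows, and in none of those printed. The homeodomain core TAATTA, searched likewise, was in 2 of 24 (8.33%) and 5.29% of all windows. These matches describe letters in the windows and mark no binding.

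Summed over members, the Hoxa, Hoxb and Hoxc clusters overlapped between the groups and the Hoxd cluster did not. The Hoxa genes summed to 13.7, 29.6 and 19.4 CPM in shIft88 libraries and 14.6, 19.2 and 34.7 CPM in controls. The Hoxb genes summed to 16.3, 45.1 and 41.8 CPM in shIft88 libraries and 98.2, 32.6 and 50.7 CPM in controls. The Hoxc genes summed to 0.113, 4.20 and 2.81 CPM in shIft88 libraries and 18.7, 0.683 and 0.939 CPM in controls. The Hoxd genes summed to 1.58, 3.23 and 4.12 CPM in shIft88 libraries and 5.81, 7.54 and 15.8 CPM in controls, and every shIft88 library was below every control. The Hoxd sum of control 3 is mostly Hoxd13, and that of the other controls mostly Hoxd3 and Hoxd4. Since the members were chosen with earlier results known, no p is given for a sum. The share of like sums over other genes that do not overlap was not computed. Of single genes tested, 3.69% were lower in every shIft88 library and 4.7% were higher.

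Paralogs 1 to 5 together were at 8.32, 23.4 and 22.1 CPM in shIft88 libraries and 65.4, 18.6 and 33.9 CPM in controls. Paralogs 6 to 9 were at 11.6, 34.9 and 27.8 CPM in shIft88 libraries and 60.9, 24.1 and 38.2 CPM in controls. Paralogs 10 to 13 were at 11.7, 23.8 and 18.2 CPM in shIft88 libraries and 10.99, 17.3 and 29.9 CPM in controls. Each of these 3 classes overlapped between the groups. Of the 13 single paralog numbers, number 3 alone did not. Its genes summed to 3.17, 7.33 and 7.43 CPM in shIft88 libraries and 13.1, 8.58 and 12.1 CPM in controls, every shIft88 library below every control. This number was picked out of 13 sums, and the share of like sums over other genes was not computed. Of single genes tested, 3.69% did not overlap in that direction and 4.7% in the other. Of all Hox reads, paralogs 10 to 13 took 37.1% (exact 95% binomial interval 34.2% to 40.0%), 29.0% (27.2% to 30.9%) and 26.8% (24.2% to 29.5%) in shIft88 1, 2 and 3. They took 8.01% (7.23% to 8.84%), 28.9% (26.8% to 31.0%) and 29.3% (27.95% to 30.8%) in control 1, 2 and 3. The intervals cover counting error only, and control 1 lay below all the others. In that library Hoxa10 was the lowest of the 6 at 7.69 CPM, while the Hoxb and Hoxc sums were the highest.

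**Figure D4:**
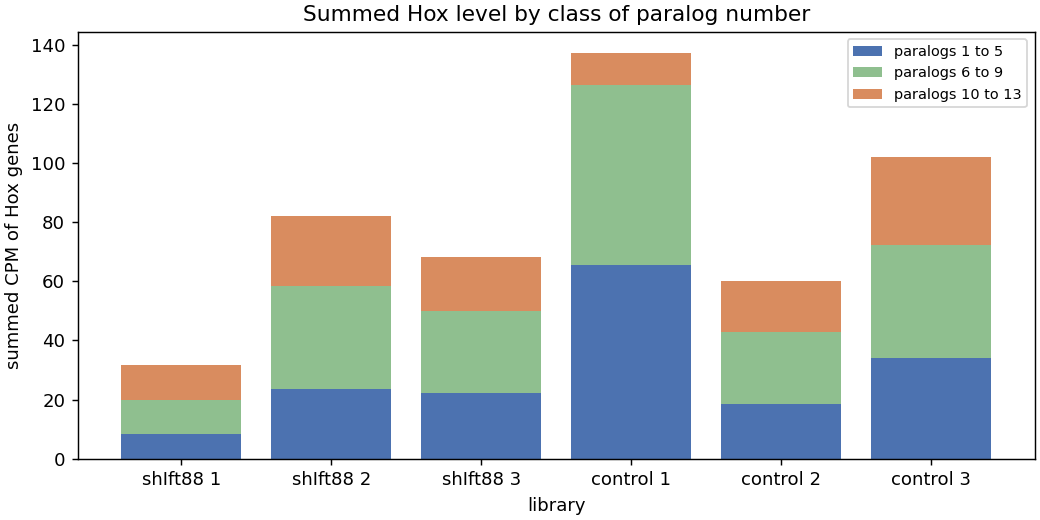
Summed CPM of the 39 Hox genes per library, shIft88 libraries left and controls right, divided into paralogs 1 to 5, 6 to 9 and 10 to 13. shIft88 1 has the lowest total at 31.7 CPM and control 1 the highest at 137 CPM, and the remaining libraries lie between 60.1 and 102 CPM.

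Fold changes were also computed within the libraries with and without reads in silent genes, a split chosen after seeing the data. Each side of it sets 2 libraries against a single one, so its directions rest on control 2, the control with the lowest Hox sum, and on shIft88 1, the library with the lowest of all. Among the 3 libraries with reads in more than 100 olfactory receptor genes, shIft88 2 and 3 against control 2, 15 of 19 tested members were higher and 4 lower in shIft88 libraries, with a median log2 fold change of 0.87, where the median of all genes was 0.031. Among the other 3, shIft88 1 against control 1 and 3, 26 of 27 tested members were lower and 1 was higher (median -3.90, against -0.11 for all genes). With a single library in a group, the filter on low counts asks for a level in only 1 library. Members high in a single control, such as Hoxd13 and Hoxc5, thus entered the second split, where 15 members were tested over all 6 libraries. Its count of lower members and its median partly follow from that filter. The share of all genes lower in each split was not computed. Neither split called a member (edgeR, 0 in each; unadjusted p under 0.05 for 2 and 1). Hoxb2 was at a log2 fold change of 1.58 in the first split and -2.99 in the second, and Hoxb6 at 1.51 and -3.90. Hoxa10, Hoxa9, Hoxd3 and Hoxd4 were below 0 and Hoxa13 above 0 in the fit of all 6 libraries and in both splits.

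**Figure D5:**
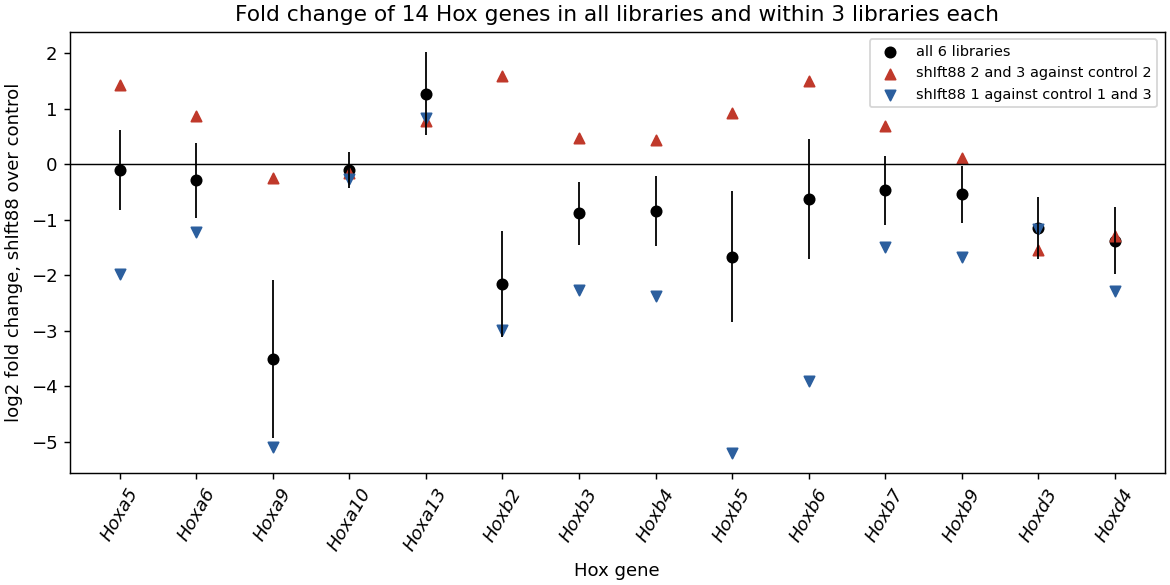
Log2 fold change of shIft88 over control for 14 of the 15 tested Hox genes, from all 6 libraries (black, with standard error), from shIft88 2 and 3 against control 2 (red), and from shIft88 1 against control 1 and 3 (blue). Red points lie above 0 for 10 of the 14 genes and blue points below 0 for 13 of them.

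None of the noncoding rows inside the clusters that were tested passed the test. Others, among them Gm11538 and Hoxa11os, did not pass the filter on low counts and were not tested. Hoxb3os, which overlaps Hoxb2 and Hoxb3 on the opposite strand, was at 2.24, 4.27 and 6.31 CPM in shIft88 libraries and 8.18, 2.89 and 4.67 CPM in controls. In the annotation used here 10 of the 39 members overlap a gene on the opposite strand. Since the strand setting of the counting is not given, reads of such partners may have been counted for a member or set aside as ambiguous. Gm53, of the stretch between Hoxb13 and Hoxb9, was at 20.3, 47.7 and 30.7 CPM in shIft88 libraries and 45.4, 38.1 and 39.6 CPM in controls. Evx1, the homeobox gene beside Hoxa13, was at 1.98, 2.39 and 1.75 CPM in shIft88 libraries, against 1.36, 1.496 and 0.0494 CPM in controls.

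Markers of neighbouring positions varied between the libraries. Otx2, the gene of forebrain and midbrain that also marks some medulloblastomas, was at 272, 309 and 260 CPM in shIft88 libraries and 337, 427 and 31.3 CPM in controls. En2, of the midbrain and cerebellum, was at 5.21, 5.78 and 1.25 CPM in shIft88 libraries and 1.06, 4.94 and 20.3 CPM in controls, and En1 was below 0.4 CPM throughout. Control 3 thus had the lowest Otx2 and the highest En2 of the 6, and it also had the highest summed granule neuron and Purkinje markers, at 326 and 961 CPM. Of that Purkinje sum, the single gene Itpr1 made up 742 CPM. Egr2, of rhombomeres 3 and 5, was at 0.566, 0.437 and 0.312 CPM in shIft88 libraries and 0.182, 1.76 and 0.445 CPM in controls. Of 19 regulators of hindbrain segments and position, 12 were tested, 6 higher and 6 lower in shIft88 libraries, and 0 were called. The smallest p was that of Irx3, which was at 37.3, 13.7 and 35.7 CPM in shIft88 libraries and 25.8, 11.9 and 10.1 CPM in controls.

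None of the partners and regulators of Hox genes passed the test. Of 9 cofactor genes tested, 5 were higher and 4 lower in shIft88 libraries. Pbx3 was at 16.1, 18.0 and 21.4 CPM in shIft88 libraries and 24.6, 32.1 and 33.2 CPM in controls, groups that did not overlap, with a log2 fold change of -0.70 (SE 0.25, unadjusted p = 0.0253). Pbx4 was at 1.73, 2.05 and 2.81 CPM in shIft88 libraries and 0.787, 1.72 and 0.321 CPM in controls, with control 2 just below the shIft88 range. All 9 cofactor and 27 Polycomb and trithorax genes had a read in every library, as did 16 to 18 of the 18 retinoid genes. Of 15 tested retinoid genes, 7 were higher and 8 lower. Aldh1a2, which makes retinoic acid in the embryo's trunk, was at 0.255, 0.538 and 0.187 CPM in shIft88 libraries and 0.454, 1.59 and 1.66 CPM in controls. Dhrs3, which limits retinoic acid, was at 121, 112 and 259 CPM in shIft88 libraries and 93.0, 50.8 and 13.8 CPM in controls, groups that did not overlap. Of 27 Polycomb and trithorax genes, 11 were higher and 16 lower, with Phf19 at 4.81, 3.43 and 8.87 CPM in shIft88 libraries and 5.60, 10.7 and 29.3 CPM in controls, and Cbx7 at 18.7, 22.1 and 16.4 CPM against 11.3, 13.3 and 16.4 CPM. edgeR called 0 genes of these 4 lists, and unadjusted p was under 0.05 for 1 cofactor, 2 retinoid, 0 segment and 0 Polycomb genes. Over all genes tested the share with such a p was 1.97% higher and 1.26% lower, and groups did not overlap for 4.7% higher and 3.69% lower.

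Markers of other cell types varied between libraries. The 10 mature neuron markers summed to 213, 156 and 19.7 CPM in shIft88 1, 2 and 3 and 59.1, 153 and 455 CPM in control 1, 2 and 3, so the 2 controls with the highest Hox sums lay at opposite ends of the control range. Among the 11 brainstem neuron markers, all except Prph were below 20 CPM, and the genes Chat, Fev and Dbh were below 0.2 CPM in every library. Fibroblast and mural markers summed to 1531 to 2089 CPM in shIft88 libraries and 679 to 1771 CPM in controls, lowest in control 3, although Col1a2 was highest there at 254 CPM. Blood and lymphoid markers (8 genes) summed to 122 to 133 CPM in shIft88 libraries and 91.9 to 188 CPM in controls. Choroid plexus and ependymal markers reached 1445 CPM in shIft88 1 and at most 15.02 CPM in the others. The 16 lower rhombic lip genes summed to 391 to 445 CPM in shIft88 libraries and 271 to 522 CPM in controls, most of it Lhx9 except in control 3, while the defining genes Atoh1 and Olig3 had no more than 0.125 CPM in any library. Granule neuron markers summed to 28.9 to 314 CPM in shIft88 libraries and 31.1 to 326 CPM in controls, Purkinje markers to 558 to 749 CPM and 342 to 961 CPM, and oligodendrocyte markers to 23.7 to 101 CPM and 22.5 to 259 CPM. Most of each Purkinje sum was Itpr1, at 541 to 718 CPM in shIft88 libraries and 341 to 742 CPM in controls. The other Purkinje markers were at most 98.4 CPM in any library. Astrocyte markers summed to 320 to 706 CPM in shIft88 libraries and 294 to 660 CPM in controls, microglial markers to 82.6 to 215 CPM and 143 to 182 CPM, and endothelial markers to 47.3 to 80.9 CPM and 42.4 to 74.6 CPM. Any part of these tissues in the Hox levels was not tested.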

How the data were processed

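RNA-seq gene counts of 6 mouse tumour libraries were used, 3 labelled sh2-Ift88 and 3 control. Libraries were made from total RNA with a stranded kit, per the labels' protocols; BWA and mm9 are named in the submitters' processing notes. For the counting program, annotation and strand setting, nothing was given in these sources. The authors deposited whole-number counts per gene without normalization, in 1 table per library with 34591 gene rows and 5 tally rows, which were left out of all totals. Totals were 26802618 to 33772559 counts per library.

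Members were the 39 rows matching Hoxa, Hoxb, Hoxc or Hoxd with a number. The members and gene lists were chosen with earlier results of these data known. The test was edgeR 4.0.16, run in R 4.3.3 (filterByExpr, 16768 genes; TMM; quasi-likelihood test with robust=TRUE, two-sided; Benjamini-Hochberg over all genes tested at 0.05; no covariate). Standard errors were derived from the F statistic. CPM were computed with TMM-scaled totals, whose factors were 0.598 in shIft88 3 and 1.05 to 1.24 in the other libraries. Levels per kb used union exon lengths of the GENCODE M21 basic annotation, a later build than mm9. The 3-read floor and binomial intervals cover counting error only. All members with a mean of at least 1 CPM in either group are given per library, others by range; of each pathway list the members called or, with none, the 2 of smallest p, of cell type marker lists the sums, and Otx2, En1, En2 and Egr2; further genes were named after their values were seen. A few genes are not reported here. Alternatives were DESeq2 1.42.0, its size factors, library totals, limma-voom (limma 3.58.1), robust=FALSE, other filters, a term for libraries with reads in more than 100 olfactory receptor genes and each library left out. The edgeR step was tested on simulated data.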

Additional observations from a re-analysis of the deposited data

How the results depend on the processing

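Outside the splits by olfactory receptor reads, edgeR called no Hox gene, cofactor, segment regulator, retinoid or Polycomb gene under any alternative. DESeq2 and limma-voom called none of them either. Within the splits only the Hox genes were examined. No paired analysis was possible because the labels give no replicate numbers: those used here follow accession order and tie no library to one of the other group. Scaling by library totals moved the all-gene median to -0.33 and that of the 15 tested Hox genes to -0.94, with 14 of them below 0. Leaving out each library in turn gave log2 fold changes from -0.60 to 0.31 for Hoxa5, -0.88 to 0.34 for Hoxa6, -1.21 to -0.12 for Hoxb4, -2.65 to -0.027 for Hoxb5, -1.09 to 0.99 for Hoxb6, -0.79 to 0.26 for Hoxb7 and -0.85 to 0.0095 for Hoxb9. The upper values of Hoxb4, Hoxb5, Hoxb6, Hoxb7 and Hoxb9 were those without control 1, and those of Hoxa5 and Hoxa6 without control 3. Within the 3 libraries with olfactory receptor reads, an alternative added after seeing the data, the log2 fold change was 1.43 for Hoxa5, 0.87 for Hoxa6, 1.58 for Hoxb2, 0.47 for Hoxb3, 0.44 for Hoxb4, 0.92 for Hoxb5, 1.51 for Hoxb6, 0.68 for Hoxb7 and 0.12 for Hoxb9. Of the 14 members given here, 5 kept their direction under every alternative that tested them (Hoxa9, Hoxa10, Hoxa13, Hoxd3 and Hoxd4); Hoxa9 was not tested with the filter of 1 CPM in 3 libraries. Log2 ratios of summed group means were -0.81 for Hoxb over all libraries, 0.41 within the libraries with such reads and -2.19 within the others. For paralogs 1 to 5 they were -1.13, 0.29 and -2.58, for paralogs 6 to 9 -0.73, 0.38 and -2.10, and for Hoxc -1.51, 2.36 and -6.44. The 2.36 rests on a Hoxc sum of 0.683 CPM in control 2 alone, and the -6.44 on 0.113 CPM in shIft88 1 alone. Within the libraries without such reads the ratios were -0.85 for Hoxa, -2.77 for Hoxd and -0.80 for paralogs 10 to 13. Over all libraries they were -0.13, -1.71 and -0.11. With libraries left out in turn the ratio ran from -0.46 to 0.31 for Hoxa, -1.11 to -0.28 for Hoxb, -2.21 to 1.55 for Hoxc (without control 1), -2.01 to -1.17 for Hoxd, -1.47 to -0.55 for paralogs 1 to 5, -1.06 to -0.33 for paralogs 6 to 9 and -0.40 to 0.34 for paralogs 10 to 13. The causes of these moves were not tested. With 1091 Hox reads in the shallowest library, members under 10 reads could not be compared.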
